A study of Mus musculus with 9 samples.

Results

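The genes of the constitutive proteasome were followed in renal cortex of diabetic mice with and without rosiglitazone. Members were all protein-coding genes whose symbol starts with Psm followed by 1 of the letters a to g and a number, except the immunoproteasome genes Psmb8, Psmb9, Psmb10, Psme1 and Psme2. The rule took 45 of the 21950 genes listed, which carried 82 of 50660 transcripts, and it used no measured value. Transcript FPKM (fragments per kilobase of transcript, relative to all mapped fragments) were summed to 1 value per gene.

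The series holds 9 RNA-seq libraries, each from the renal cortex of 1 male mouse aged 15 weeks, in 3 groups of 3. The dbdb and dbR mice were C57BL/KsJ db/db animals (BKS.Cg-Dock7m+/+Leprdb/Nju), homozygous for a mutation of the leptin receptor and diabetic. From 7 weeks of age and for 8 weeks, dbR mice received rosiglitazone, a glucose-lowering drug that activates PPARγ, at 20 mg/kg per day, and dbdb mice received the vehicle. The control mice were nondiabetic db/m littermates, heterozygous for the same mutation; vehicle dosing of this group is not given in the sources used here. All groups carry the mutant leptin receptor allele, in 1 or both copies, and the diabetes of db/db mice follows from lost leptin signalling and comes with obesity, so hyperglycaemia, body mass and leptin receptor loss cannot be told apart.

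The proteasome is the protease that degrades ubiquitin-tagged proteins in cytosol and nucleus. Its 20S core is a barrel of alpha and beta rings, in which the beta subunits Psmb5, Psmb6 and Psmb7 hold the chymotrypsin-like, caspase-like and trypsin-like sites. The 19S regulatory particle caps the core: its ATPase ring (Psmc genes) unfolds the substrate, and its non-ATPase subunits (Psmd genes) bind ubiquitin, remove it and hold the particle together. Dedicated chaperones build both parts, and the transcription factor encoded by Nfe2l1 is known to drive proteasome genes together when proteasome activity falls short. Renal cortex is mostly proximal tubule, an epithelium with heavy protein uptake and turnover.

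The core of the antioxidant response element, TGACNNNGC, is the motif bound by the Nfe2l1 and Nfe2l2 proteins, so the promoters of the members were searched for it. RefSeq promoters (GRCm38.p6) were found for 37 of the 45 members, and the 250 bases before the start were read on both strands. The motif was present in 5 of the 37 (13.5%), beside 11.5% of 27025 genes with a promoter entry. These 5 windows are shown because they are the members with the motif, which stands in capitals with up to 30 of the searched bases on either side.
Psmb5, chr14:54618004-54618072, gene on the minus strand, motif on the gene's strand: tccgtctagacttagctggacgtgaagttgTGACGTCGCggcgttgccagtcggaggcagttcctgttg
Psmb6, chr11:70525318-70525356, gene on the plus strand, motif on the gene's strand: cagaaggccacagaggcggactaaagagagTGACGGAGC
Psmc6, chr14:45329574-45329635, gene on the plus strand, motif on the opposite strand: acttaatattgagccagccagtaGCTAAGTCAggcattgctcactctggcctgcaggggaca
Psmd12, chr11:107479278-107479319, gene on the plus strand, motif on the opposite strand: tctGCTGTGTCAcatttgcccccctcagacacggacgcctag
Psmd9, chr5:123228129-123228189, gene on the plus strand, motif on the gene's strand: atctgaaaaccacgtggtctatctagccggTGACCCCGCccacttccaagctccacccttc
In Psmb6 the match ends 1 base before the start, in Psmd9 it covers bases 31 to 23 and in Psmb5 bases 47 to 39 before it, while those of Psmc6 (227 to 219) and Psmd12 (247 to 239) lie at the far end of the window. The CCAAT box, the site of the factor NF-Y, was in 14 of 37 member promoters (37.8%) and in 37.5% of all, and 5 of the 7 alpha subunit genes had it. TGACGTCA, the cyclic AMP response element, whose letters cannot overlap TGACNNNGC, was in 0 of 37 and in 1.77% of all. The RefSeq starts used lie 27, 36 and 44 bases inside the GENCODE span of the gene for Psmb5, Psmc6 and Psmd12 and 10 bases before it for Psmb6, but 58777 bases inside it for Psmd9. A match is a description of letters and not a binding site.

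Renal cortex markers were present in every library: the 8 proximal tubule markers summed to between 2818 and 3554 FPKM, and adipocyte markers stayed at or below 0.756. Mitochondrial genes took 26.9% to 32.8% of the FPKM, and the FPKM of the other genes summed to 472871 to 514242 in control, 427041 to 453240 in dbdb and 435414 to 475393 in dbR. The relative depth of the libraries, taken from the value of 1 fragment, ran from 0.913 to 1.14 times that of control 1. Libraries stood apart in several ways. Library dbdb 3 had high immunoproteasome FPKM, control 3 was the highest of its group in 33 of the 43 members tested, and dbR 1 was the lowest of its group in 38. The counts of called members are therefore also given without these libraries. Counts of separated groups and those by sub-complex and partner list rest on all 9, as do counts of signs except where stated. In a bulk sample, a smaller number of cells of a type and less RNA per cell cannot be told apart.

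Of the 45 members, 43 reached a mean of 0.1 FPKM. The exceptions were Psma8, a testis alpha subunit, at 0.0248 to 0.126 FPKM, and Psmb11, the beta subunit of thymic epithelium, which was listed at 0 in 7 libraries and at 0.00895 and 0.0152 in dbdb 2 and dbR 1. Per length of transcript, subunits of a ring that stand in equal number in the particle differed in RNA level. Control means spanned 49.9 FPKM (Psma5) to 173 (Psma4) in the alpha ring, 79.2 (Psmb2) to 146 (Psmb5) in the beta ring, 62.7 (Psmc5) to 102 (Psmc3) among the ATPases and 37.7 (Psmd13) to 87.9 (Psmd8) among the 19S non-ATPases. The median control level was 105 and 119 FPKM in the alpha and beta rings and 72.1 and 46.6 among the ATPases and non-ATPases, so the RNA of the core stood above that of the regulatory particle.

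**Figure D1:**
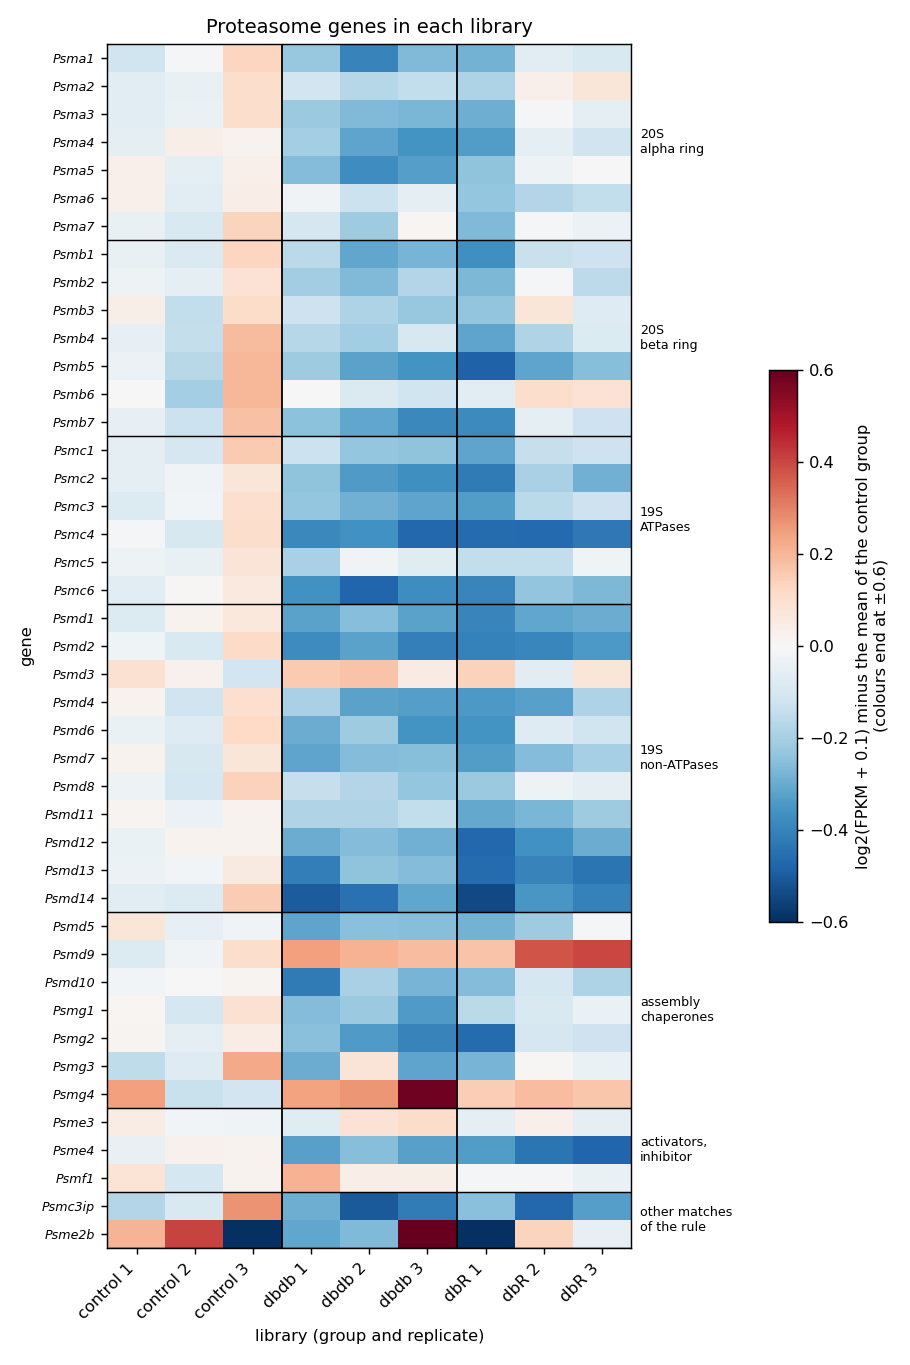
Heat map of the 43 members tested (rows, by sub-complex) in the 9 libraries (columns), coloured by log2(FPKM + 0.1) minus the control mean, with colours ending at ±0.6. Most rows are below the control mean in the diabetic libraries: 37 of the 43 members had a negative fold change in dbdb against control, and 39 had one in dbR.

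The first comparison, dbdb vs. control, asks what the diabetic state does to these genes. Proteasome RNA was lower in dbdb: 25 of the 43 members fell (58.1%; limma, Benjamini-Hochberg adjustment over 14537 genes), 1 member (Psmg4) rose, and 17 did not pass the test. Of all genes tested, 13.4% fell and 13.1% rose. Falls were modest, with a median log2 fold change of -0.27 over the 43 members (-17.3%) and a range of -0.42 to 0.36, while the median of all genes was -0.00. In 30 members (69.8%) every dbdb library was below every control library, as it was in 21.2% of all genes. Among the 6003 genes with a mean of at least 10 FPKM, the level of most members, 20.2% fell, 12.6% rose and 30.6% had such separation. Leaving out 1 library changed the count most for control 3 (12 members lower), dbdb 3 (13) and dbdb 2 (14), and the median without them stayed between -0.29 and -0.23, as it did without any other library.

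The 31 subunits of the 20S core and 19S particle summed to 2516, 2448 and 2774 FPKM in control, to 2251, 2168 and 2170 in dbdb and to 2084, 2362 and 2354 in dbR. All dbdb and dbR sums were below all control sums. The means were 2579 ± 172, 2196 ± 47.7 and 2267 ± 158 (SD, n = 3), or 0.852 of control in dbdb and 0.879 in dbR. As a share of the FPKM of all genes that are not mitochondrial, the 31 subunits took 0.514%, 0.518% and 0.539% in control, 0.497%, 0.490% and 0.508% in dbdb and 0.479%, 0.501% and 0.495% in dbR. These shares were again lower in every diabetic library than in every control library, but the ratios to control were nearer to 1, at 0.952 and 0.938. When the mitochondrial genes were counted as well, the shares of dbdb 3 (0.365%) and control 2 (0.362%) overlapped.

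**Figure D2:**
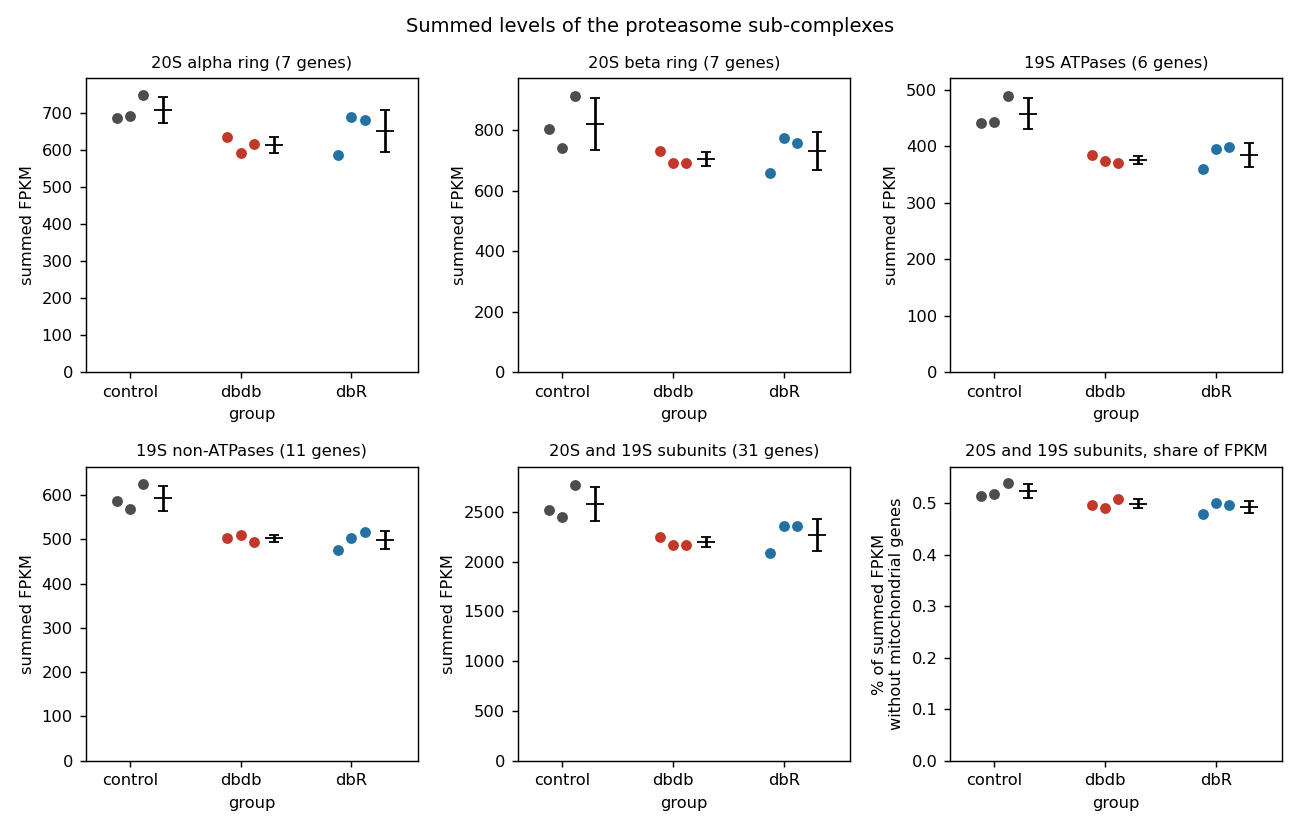
Summed FPKM of the 20S alpha ring, 20S beta ring, 19S ATPases, 19S non-ATPases and all 31 subunits, and their share of non-mitochondrial FPKM in percent, by group; points are libraries and bars the mean ± SD (n = 3). The 31 subunits are lower in every dbdb and dbR library than in every control library, in sum and in share.

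How many members passed the test depended on how the libraries were scaled. Scaling all libraries to the same sum without the mitochondrial genes raised the median log2 fold change of all genes, dbdb vs. control, by 0.15, and with it the median of the members to -0.12. Such a scaling shifts all genes of a library alike, so it leaves the place of the members among all genes nearly as it was (37 of 43 below the median of all genes) by construction. Only 5 members were then called lower (Psmc2, Psmc4, Psmc6, Psmd2 and Psmd14) and 4 higher (Psmd3, Psmd9, Psmg4 and the inhibitor gene Psmf1). The background moved too, from 13.4% of genes lower and 13.1% higher to 6.67% and 24.0%. Of the calls, 78.3% were then higher, beside 49.5% without the scaling. Scaling to the sum with the mitochondrial genes left 3 members lower (Psmc4, Psmc6 and Psmd14), and these 3 were called under all 22 alternatives tried.

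**Figure D3:**
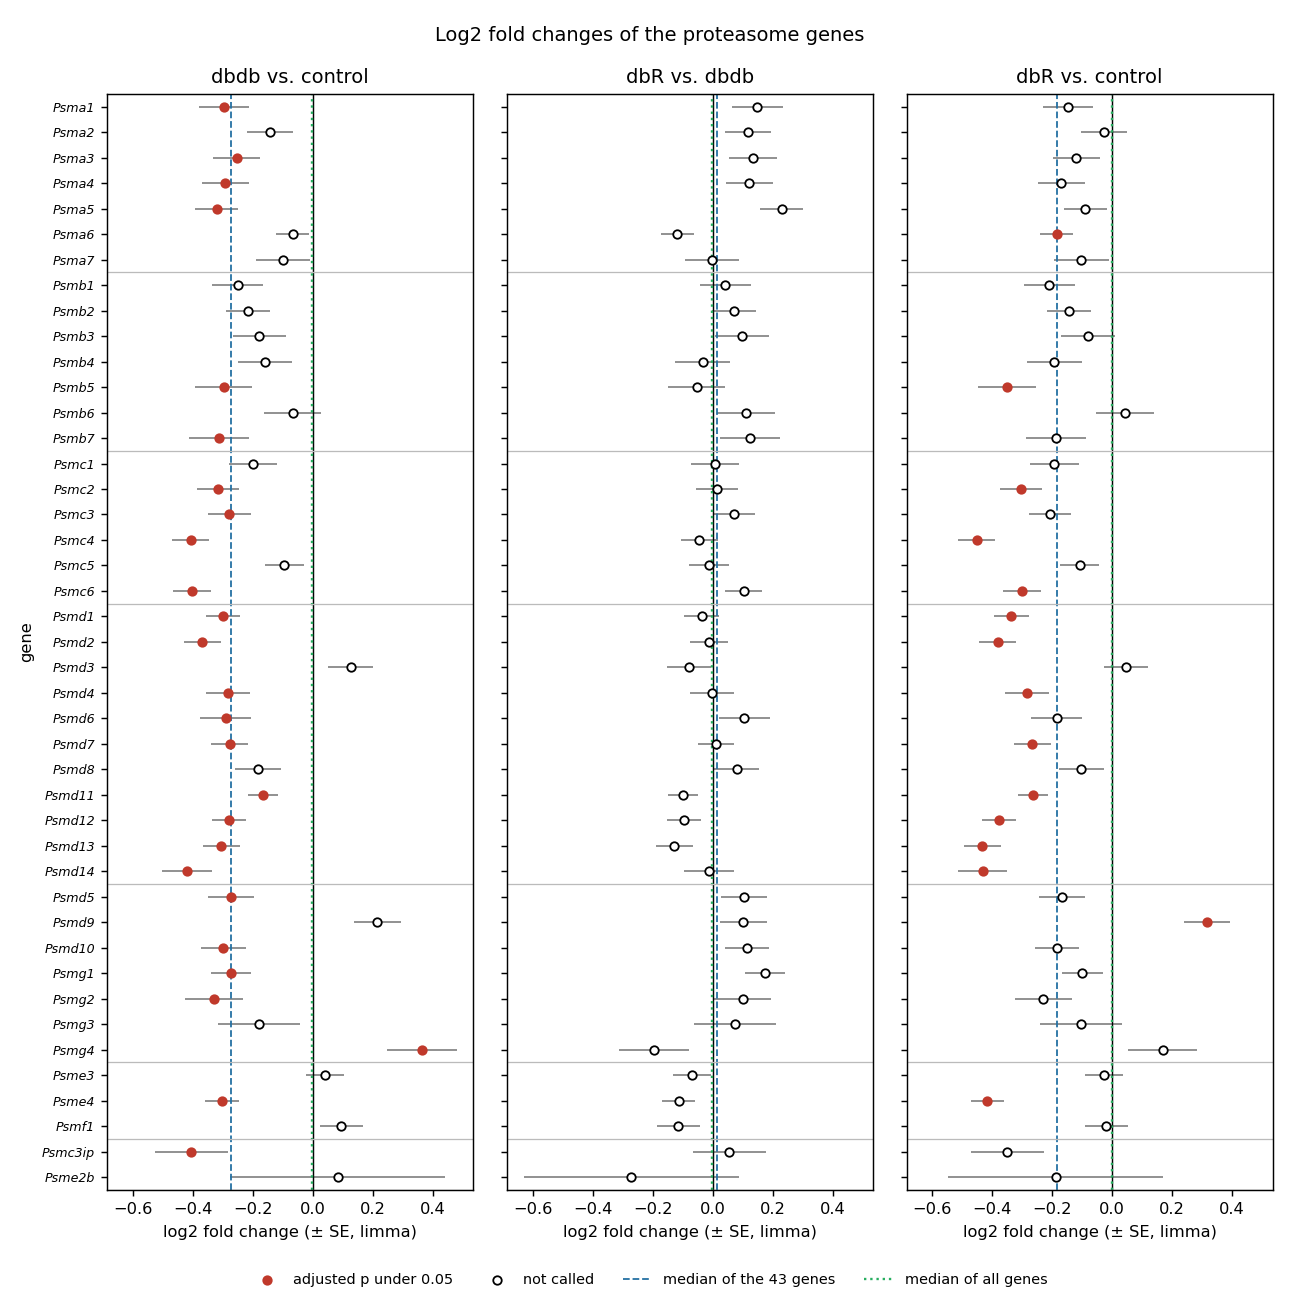
Log2 fold change ± SE of the 43 members in the 3 comparisons, by sub-complex; filled red points passed the test, the dashed line is the median of the members and the dotted line that of all genes. The dashed line lies at -0.27 in dbdb vs. control, 0.01 in dbR vs. dbdb and -0.19 in dbR vs. control.

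In the 20S alpha ring, 4 of 7 genes fell in dbdb (Psma1, Psma3, Psma4 and Psma5), with a ring median of -0.25. The alpha subunits form the outer rings that gate entry to the core. Psma5 (chr3:108256926-108279974) was at 50.9, 47.8 and 50.9 FPKM in control and at 41.7, 38.5 and 39.6 in dbdb, a log2 fold change of -0.32 ± 0.07 (SE; adjusted p = 0.00932). Psma4 (chr9:54950790-54958030), the alpha gene with the most RNA, was at 166, 177 and 175 FPKM in control and at 150.1, 139 and 135 in dbdb (-0.29 ± 0.08, adjusted p = 0.0215). Psma1 (chr7:114264606-114276118) was at 67.8, 72.9 and 80.6 FPKM in control and at 62.9, 55.7 and 61.3 in dbdb (-0.30 ± 0.08, adjusted p = 0.0266). In each of these 3 genes no dbdb library reached a control library. The calls of Psma1 and Psma4 were lost without control 2, control 3 or dbdb 2, that of Psma4 also without dbdb 3, and all 3 under either same-sum scaling. Psma6 was at 86.1, 80.4 and 86.7 FPKM in control and at 83.2, 77.2 and 81.2 in dbdb, groups that overlap (-0.07 ± 0.06, adjusted p = 0.401).

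In the beta ring, 2 of 7 genes fell, Psmb5 and Psmb7, and the ring median was -0.22. This share, 28.6%, was near the 20.2% of genes with a mean of at least 10 FPKM, so it is no result about the ring. Psmb5 (chr14:54614119-54618022), the chymotrypsin-like site, was at 142, 129.9 and 167 FPKM in control and at 125, 117 and 114 in dbdb, a log2 fold change of -0.30 ± 0.10 (adjusted p = 0.0445). Psmb7 (chr2:38588036-38644087), the trypsin-like site, was at 119.9, 113 and 139.9 FPKM in control and at 105, 99.8 and 94.7 in dbdb (-0.31 ± 0.10, adjusted p = 0.0420). Both genes were lower in every dbdb library than in every control library, yet both calls stood near the threshold and were lost without control 1, control 3, dbR 3 or any single dbdb library. The calls held under 7 (Psmb5) and 10 (Psmb7) of 22 alternatives. Either same-sum scaling also lost them (adjusted p = 0.129 and 0.104 without mitochondrial genes). Psmb6 (chr11:70525367-70527858), the caspase-like site, was at 113, 97.7 and 129 FPKM in control and at 113, 106 and 104 in dbdb. The dbdb libraries of Psmb6 lay inside the control range (-0.07 ± 0.10, adjusted p = 0.637), and the sign turned positive under both same-sum scalings. Psmb1 and Psmb2, which are structural beta subunits, were just outside the threshold with adjusted p = 0.0516 and 0.0528.

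Among the 19S ATPases, 4 of 6 genes fell (Psmc2, Psmc3, Psmc4 and Psmc6), with a median of -0.30. These genes encode subunits of the hexameric motor that threads substrate into the core. Psmc4 (chr7:28041707-28050101) was at 63.4, 59.5 and 68.5 FPKM in control and at 48.8, 49.4 and 45.9 in dbdb, a log2 fold change of -0.41 ± 0.06 (adjusted p = 0.00123). Psmc6 (chr14:45329788-45349705) was at 76.7, 80.7 and 83.8 FPKM in control and at 62.5, 57.7 and 62.1 in dbdb (-0.40 ± 0.06, adjusted p = 0.00148). For both genes the highest dbdb library was more than 10 FPKM below the lowest control library. Psmc2 (chr5:21785283-21803787) was at 60.4, 61.8 and 66.0 FPKM in control and at 53.1, 49.5 and 48.5 in dbdb (-0.32 ± 0.07, adjusted p = 0.00894). Psmc3ip, matched by its symbol only, encodes a factor of meiotic recombination; it was at 5.93, 6.30 and 8.10 FPKM in control and at 5.46, 4.70 and 4.998 in dbdb (-0.41 ± 0.12, adjusted p = 0.0338), and its call was lost without control 2, control 3, dbdb 2 or dbdb 3.

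Of the 19S non-ATPases, 9 of 11 genes fell, with a median of -0.28, the exceptions being Psmd3 and Psmd8. Psmd14 (chr2:61711694-61800376), the deubiquitinase that cuts the ubiquitin chain off the substrate, was at 37.0, 36.6 and 43.1 FPKM in control and at 27.4, 28.5 and 31.2 in dbdb. Its fall of 25.2% was the largest of the 43 members (-0.42 ± 0.08, adjusted p = 0.00518). Psmd2 (chr16:20651652-20663414), a scaffold of the base, was at 67.0, 63.9 and 73.9 FPKM in control and at 52.5, 54.6 and 51.2 in dbdb (-0.37 ± 0.06, adjusted p = 0.00228). Psmd1 (chr1:86064387-86139151), the other large scaffold of the base, was at 43.9, 47.2 and 48.6 FPKM in control and at 37.3, 38.9 and 37.3 in dbdb (-0.30 ± 0.06, adjusted p = 0.00446). The lid subunits Psmd12 and Psmd13 showed the same separation of the groups. Psmd12 was at 44.8, 46.8 and 46.7 FPKM in control and at 37.5, 38.5 and 37.7 in dbdb (-0.28 ± 0.06, adjusted p = 0.00571). Psmd13 was at 36.7, 37.2 and 39.1 FPKM in control and at 28.3, 31.8 and 31.4 in dbdb (-0.31 ± 0.06, adjusted p = 0.00523). Psmd3, also a lid subunit, ran the other way without passing the test, with 57.9, 55.3 and 50.2 FPKM in control and 60.7, 61.2 and 56.2 in dbdb (0.13 ± 0.07, adjusted p = 0.243). Psmd11, another lid subunit, was at 39.0, 37.6 and 39.1 FPKM in control and at 34.1, 34.1 and 34.8 in dbdb (-0.17 ± 0.05, adjusted p = 0.0327). Its call held under 10 of 22 alternatives and was lost without control 1, control 3 or any single dbdb library and under either same-sum scaling (-0.01, adjusted p = 0.914, without mitochondrial genes), and the sign turned when its highest transcript was read (0.05, adjusted p = 0.656).

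The assembly chaperones were mixed. Of 7 genes, 4 fell (Psmd5, Psmd10, Psmg1 and Psmg2), 1 rose (Psmg4), and the median was -0.27. Psmd10, a chaperone of the 19S base also known as gankyrin, was at 13.5, 13.6 and 13.8 FPKM in control and at 10.1, 11.9 and 11.2 in dbdb (-0.30 ± 0.07, adjusted p = 0.0149). Psmd5, another base chaperone, was at 18.5, 16.9 and 17.3 FPKM in control and at 14.1, 14.8 and 14.7 in dbdb (-0.27 ± 0.08, adjusted p = 0.0267). Psmg1, which helps to build the alpha ring, was at 22.7, 20.9 and 24.003 FPKM in control and at 18.8, 19.3 and 17.7 in dbdb (-0.27 ± 0.07, adjusted p = 0.0152). In these 3 genes all dbdb libraries were below all control libraries; the call of Psmd5 was lost without control 1, control 3 or any single dbdb library, and that of Psmg1 without control 3 or dbdb 3. Psmg4, a chaperone of the alpha ring, was at 22.2, 17.1 and 17.3 FPKM in control and at 22.1, 22.5 and 28.1 in dbdb (0.36 ± 0.12, adjusted p = 0.0426). Control 1 lay within the dbdb range, and the rise of Psmg4 was called under 9 of the 22 alternatives, and not without control 2, control 3, dbdb 2, dbdb 3 or any single dbR library. Psmd9, the third base chaperone, was at 12.2, 12.8 and 13.9 FPKM in control and at 15.4, 15.0 and 14.8 in dbdb, higher in every library but short of the threshold (0.21 ± 0.08, adjusted p = 0.0675).

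Of the 2 activators and the inhibitor that bind the core without 19S, Psme4 fell. Psme4 (chr11:30771726-30880361) encodes the activator PA200 and was at 53.9, 56.5 and 56.4 FPKM in control and at 44.3, 46.5 and 44.3 in dbdb (-0.30 ± 0.06, adjusted p = 0.00352). The nearest libraries of the groups stood 53.9 against 46.5 FPKM apart. Psme2b, a near-identical copy of the immunoproteasome gene Psme2 with which it may share reads, was at 1.47, 1.70 and 0.793 FPKM in control and at 0.999, 1.03 and 2.31 in dbdb, with no separation (0.08 ± 0.36, adjusted p = 0.889).

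**Figure D4:**
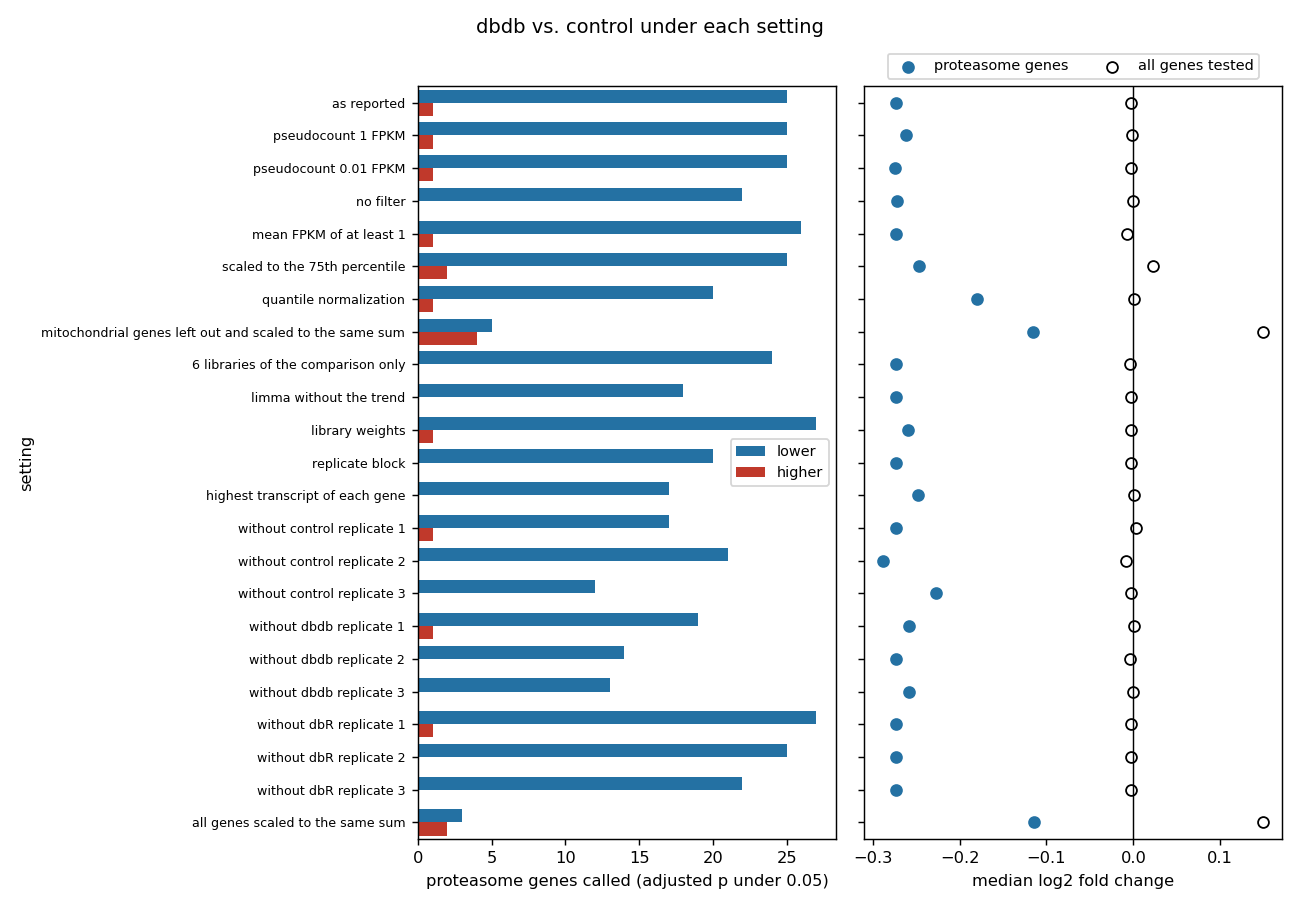
Members called lower and higher (left) and median log2 fold change of the members and of all genes (right) in dbdb vs. control under each alternative setting. The count of lower members runs from 3 to 27, and the median of the members stays below that of all genes in each setting.

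The comparison dbR vs. dbdb asks what rosiglitazone changed in diabetic mice. It shares the dbdb libraries with the first comparison and the dbR libraries with the third, so the 3 are not independent. By limma, 0 of the 43 members rose and 0 fell, where 0.564% of all genes rose and 0.179% fell (75.9% of calls higher, and 48.6% when scaled without mitochondrial genes), and the counts were 0 and 0 under all 22 alternatives. At an unadjusted p under 0.05, 2 members were higher (Psma5 and Psmg1) and 0 were lower. Of all 14537 genes, 1371 were higher and 1170 lower, so the members show no excess at this threshold. The median of the members was 0.01 (0.917%) with a range of -0.27 to 0.23, and 24 of the fold changes were positive and 19 negative. Without dbR 1 the median was 0.074 and 13 were negative, and with library weights 0.049 and 15. Under the same-sum scalings the median was -0.050 without and -0.051 with mitochondrial genes, and 24 were negative in both. In 2 members (4.65%) all dbR libraries were above all dbdb libraries and in 6 (14.0%) all were below, beside 10.7% and 11.9% of all genes.

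Signs are given by sub-complex as a description. Fold changes were positive for 5 of 7 alpha, 5 of 7 beta, 4 of 6 ATPase and 6 of 7 chaperone genes and for 3 of 11 19S non-ATPase genes, with medians of 0.12, 0.07, 0.01, 0.10 and -0.01. They were positive for 0 of the 3 activator and inhibitor genes (median -0.11), of which 2 had all dbR libraries below all dbdb libraries. Psma5 was at 42.1, 48.8 and 49.98 FPKM in dbR, above all 3 dbdb libraries, and dbR 2 and 3 lay within the control range (0.23 ± 0.07 vs. dbdb, adjusted p = 0.147). Psmg1 was at 20.1, 21.1 and 21.9 FPKM in dbR, also above dbdb (0.17 ± 0.07, adjusted p = 0.225). The lowest member by fold change was Psme2b, at 0.768, 1.39 and 1.22 FPKM in dbR (-0.27 ± 0.36, adjusted p = 0.743). Psmg4, at 20.8, 21.3 and 21.04 FPKM, was below all dbdb libraries (-0.20 ± 0.12, adjusted p = 0.417). At SEs of 0.06 to 0.12 on the log2 scale for most named members, changes as small as these medians were not detectable with 3 mice a group.

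The comparison dbR vs. control asks which differences remained under the drug. Of the 43 members, 14 were lower (32.6%) and 1, Psmd9, was higher, beside 11.8% and 12.3% of all genes and 18.9% and 10.9% of the genes with at least 10 FPKM. The median was -0.19 (-12.1%), the range -0.45 to 0.32, and in 21 members (48.8%) all dbR libraries were below all control libraries, as in 21.1% of all genes. Without dbR 1 the median was -0.11. Between 11 and 14 members were lower when any single library was left out, and 11 and 10 under the same-sum scalings without and with mitochondrial genes. Scaling without mitochondrial genes took the background from 11.8% lower and 12.3% higher to 6.93% and 16.5%, and the share of higher calls among all called genes from 51.1% to 70.5%.

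The 14 lower members of dbR vs. control were 8 of the 11 19S non-ATPases (Psmd1, Psmd2, Psmd4, Psmd7, Psmd11, Psmd12, Psmd13 and Psmd14), 3 of the 6 ATPases (Psmc2, Psmc4 and Psmc6), Psma6, Psmb5 and Psme4. The controls are those of dbdb vs. control, so calls shared by both comparisons are not independent. Whether the effect differed between dbdb and dbR is what dbR vs. dbdb tests, and no member passed there. In the summed FPKM of the 11 non-ATPases, control had 593 ± 28.3, dbdb 502 ± 8.29 and dbR 499 ± 20.1 (SD, n = 3). The alpha ring had 709.7 ± 34.2, 615 ± 21.04 and 653 ± 56.4.

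Of the 17 genes of the 19S particle, 11 fell in dbR vs. control, beside 18.9% of genes with a mean of at least 10 FPKM. Psmc4 was at 46.3, 46.1 and 47.3 FPKM in dbR (-0.45 ± 0.06 vs. control, adjusted p = 7.58e-04). Psmd13 was at 27.3, 28.5 and 27.8 FPKM (-0.43 ± 0.06, adjusted p = 8.69e-04). Psmd14 was at 26.7, 30.4 and 29.2 FPKM (-0.43 ± 0.08, adjusted p = 0.00468). These 3 genes had the lowest fold changes of the comparison, and each dbR library was below each control library. Psmd12 was at 33.3, 35.8 and 37.5 FPKM (-0.38 ± 0.06, adjusted p = 0.00132), Psmd2 at 51.4, 51.9 and 53.6 (-0.38 ± 0.06, adjusted p = 0.00199) and Psmd1 at 35.3, 37.4 and 37.9 (-0.34 ± 0.06, adjusted p = 0.00255). Psmc2 was at 46.7, 54.8 and 51.3 FPKM (-0.30 ± 0.07, adjusted p = 0.0118) and Psmc6 at 61.0, 68.3 and 66.6 (-0.30 ± 0.06, adjusted p = 0.00731). These 8 genes and the activator Psme4, at 44.1, 41.0 and 39.99 FPKM (-0.42 ± 0.06, adjusted p = 6.72e-04), were the 9 of 14 lower members whose call held under all 22 alternatives.

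Of the 21 genes of the 20S rings and the chaperones, 2 fell in dbR vs. control (Psma6 and Psmb5) and 1 rose (Psmd9). Among genes with a mean of at least 10 FPKM, 18.9% fell and 10.9% rose, so these counts are no result about the list. The medians stayed negative, at -0.12 and -0.19 in the alpha and beta rings and -0.10 among the chaperones. Library dbR 1 was the lowest of its group in all 14 of the 20S genes. Psma1 was at 60.4, 70.2 and 69.1 FPKM and Psma4 at 137, 166 and 159 (-0.15 ± 0.08 and -0.17 ± 0.08 vs. control, adjusted p = 0.233 and 0.147). In both genes dbR 2 and dbR 3 were above all dbdb libraries and dbR 1 was not. Psma6 was at 71.8, 74.6 and 76.2 FPKM in dbR, below every control and dbdb library (-0.19 ± 0.06, adjusted p = 0.0356), a call that held under 10 of 22 alternatives. It was lost without control 1, control 3 or any single dbR library. Psmb5 was at 104, 117 and 122 FPKM (-0.35 ± 0.10, adjusted p = 0.0248), and this call was lost without control 1, control 3, dbR 1 or dbR 2. Psmb7 was at 94.9, 119 and 114 FPKM and Psmb6 at 107, 121 and 120 (-0.19 ± 0.10 and 0.04 ± 0.10, adjusted p = 0.2002 and 0.793). Psmd9 was at 14.6, 16.9 and 17.1 FPKM, above all control libraries (0.32 ± 0.08, adjusted p = 0.0157), and its call was lost without control 1, dbR 2 or dbR 3.

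The immunoproteasome genes were excluded by the rule. In immune and interferon-exposed cells Psmb8, Psmb9 and Psmb10 replace the catalytic subunits, and Psme1 and Psme2 encode an activator of the core. Psmb8, the counterpart of Psmb5, was at 8.28, 5.88 and 5.48 FPKM in control, at 2.103, 3.65 and 54.2 in dbdb and at 4.99, 5.49 and 5.32 in dbR. Psmb9, the counterpart of Psmb6, was at 6.86, 3.24 and 3.15 FPKM in control, 1.40, 1.28 and 9.01 in dbdb and 1.64, 2.27 and 3.55 in dbR. In dbdb, 1 library decided the group: dbdb 3 was the highest of the 9 and the other two were the lowest. Psmb10 was at 30.7 FPKM in dbdb 3 and at 4.73 to 9.19 elsewhere, Psme1 at 67.3 against 32.3 to 44.9, and Psme2 at 82.6 against 38.9 to 51.6. With all 9 libraries, limma called 0 of the 5 genes in any comparison. Without dbdb 3, Psmb8 (-1.19 ± 0.23, adjusted p = 0.00673) and Psmb9 (-1.55 ± 0.36, adjusted p = 0.0158) were lower in dbdb than in control, and Psme1 was higher in dbR than in control (0.31 ± 0.07, adjusted p = 0.0153). The constitutive counterpart of Psmb8, Psmb5, was at 114 FPKM in dbdb 3 beside 125 and 117 in dbdb 1 and 2.

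**Figure D5:**
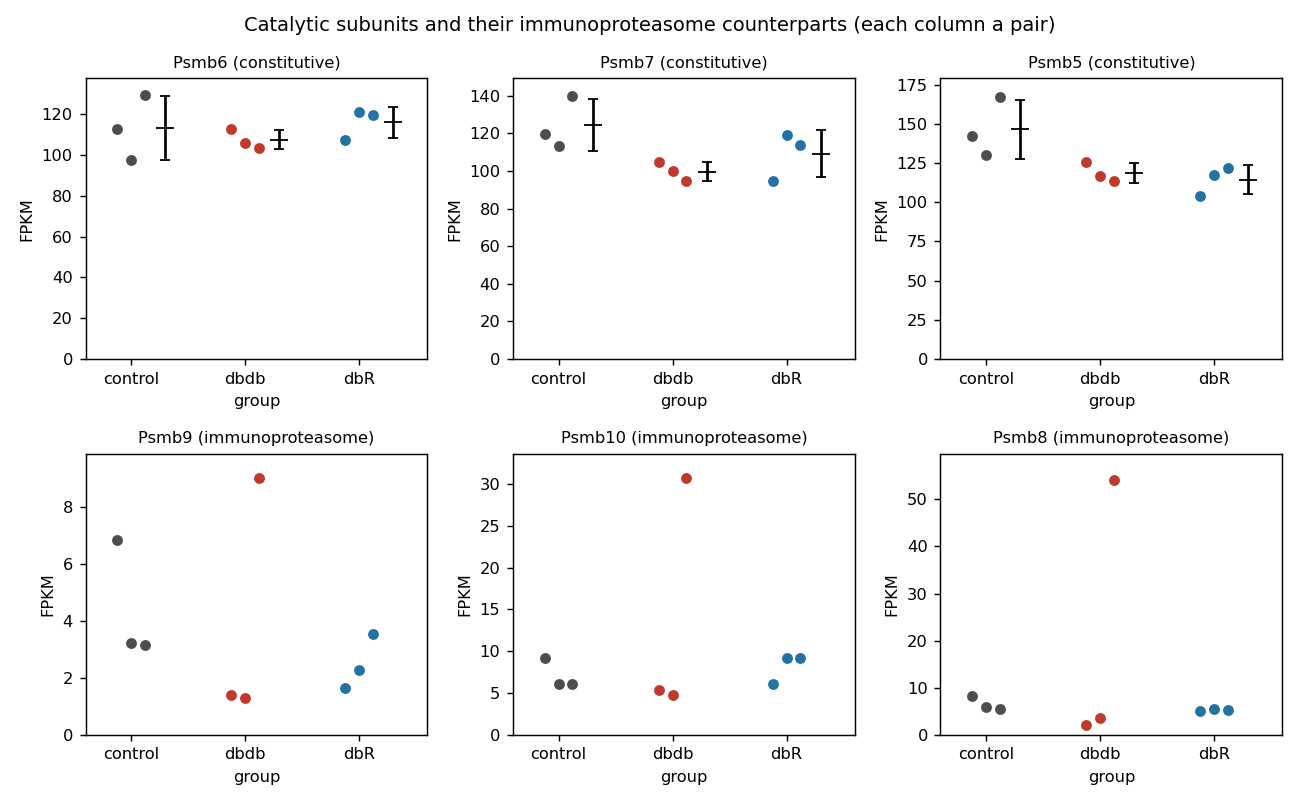
FPKM of the catalytic subunits Psmb6, Psmb7 and Psmb5 (top) and of their immunoproteasome counterparts Psmb9, Psmb10 and Psmb8 (bottom) in each library; bars in the top row are mean ± SD (n = 3). Library dbdb 3 stands at 54.2 FPKM for Psmb8 but among its group for Psmb5.

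Genes around the proteasome were counted on lists of its partners. Of 17 other subunits and bound factors, 4 fell and 0 rose in dbdb vs. control (median -0.07), 0 changed in dbR vs. dbdb by limma (1 higher and 3 lower at an unadjusted p under 0.05), and 6 fell in dbR vs. control (median -0.12). These are 23.5% and 35.3% of the list, beside 20.2% and 18.9% of genes with a mean of at least 10 FPKM. Pomp, the chaperone that completes the core, was at 105, 108 and 114 FPKM in control, at 88.7, 79.1 and 89.8 in dbdb and at 86.8, 97.6 and 96.9 in dbR. Pomp fell in dbdb (-0.35 ± 0.07, adjusted p = 0.00609) and in dbR (-0.22 ± 0.07, adjusted p = 0.0484), the second of these a call that held under 6 of 22 alternatives and was lost without any control library, any dbR library, dbdb 1 or dbdb 3. Adrm1, a ubiquitin receptor of the 19S particle, was at 44.1, 39.8 and 39.6 FPKM in control, 38.3, 39.0 and 38.3 in dbdb and 33.1, 33.3 and 33.2 in dbR. It fell against control in dbR (-0.31 ± 0.06, adjusted p = 0.00332), and dbR vs. dbdb did not pass (-0.21 ± 0.06, adjusted p = 0.0926). The bound deubiquitinase Usp14 and the thioredoxin-like Txnl1 fell in both groups against control, with log2 fold changes of -0.29 and -0.29 in dbdb (adjusted p = 0.00858 and 0.00534) and of -0.35 and -0.39 in dbR (adjusted p = 0.00342 and 0.00101). Under either same-sum scaling the dbdb calls of Usp14 and Txnl1 were lost, and under scaling to the sum of all genes those of Pomp in dbdb and of Adrm1 and Usp14 in dbR as well.

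Of the 8 genes tested of the Nfe2l1 axis, 1 rose and 1 fell in dbdb vs. control, 0 passed in dbR vs. dbdb by limma (0 also at an unadjusted p under 0.05), and 2 rose and 1 fell in dbR vs. control. With 13.1% of all genes higher and 13.4% lower in dbdb vs. control, these counts are at the background, and only single genes are described. Nfe2l1 (chr11:96817414-96829968) was at 27.4, 28.6 and 26.2 FPKM in control, at 35.4, 36.6 and 38.6 in dbdb and at 36.6, 35.3 and 33.3 in dbR. It rose in both diabetic groups: the log2 fold change was 0.43 ± 0.06 in dbdb (adjusted p = 8.57e-04) and 0.36 ± 0.06 in dbR (adjusted p = 0.00253), both called under all 22 alternatives. Ddi2, the protease that cuts and so activates the Nfe2l1 protein, was at 24.5, 24.7 and 23.8 FPKM in control, 17.8, 21.9 and 20.5 in dbdb and 19.02, 17.5 and 19.4 in dbR. Ddi2 fell in dbdb (-0.29 ± 0.08, adjusted p = 0.0247) and in dbR (-0.38 ± 0.08, adjusted p = 0.00669). The first call was lost without control 1, control 2 or dbdb 1 and with the highest transcript of each gene (adjusted p = 0.331). Both calls were lost under the same-sum scalings. Nfe2l2, the related stress factor, was at 31.3, 33.1 and 30.6 FPKM in control, 35.7, 35.1 and 35.6 in dbdb and 31.4, 37.2 and 34.0 in dbR, and did not pass in dbdb (0.16 ± 0.07, adjusted p = 0.0986) or dbR (0.11, adjusted p = 0.274). Maff, a small partner of both factors, was at 0.291 to 0.518 FPKM in control and 0.813 to 1.31 in dbR, where it rose (1.21 ± 0.28, adjusted p = 0.0114), a call lost when each gene was read from its highest transcript.

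The ubiquitin genes upstream of the particle were counted next. Of 22 genes that supply ubiquitin or bring substrates, 6 fell and 0 rose in dbdb vs. control (median -0.13), 0 changed in dbR vs. dbdb by limma (2 higher and 1 lower at an unadjusted p under 0.05), and 5 fell in dbR vs. control (median -0.14). These shares, 27.3% and 22.7%, were near the 20.2% and 18.9% of genes with a mean of at least 10 FPKM, so they are no result about the list. Vcp, the segregase that extracts ubiquitylated proteins from membranes and complexes, was at 148, 143 and 161 FPKM in control, at 119.9, 125 and 115 in dbdb and at 115, 116 and 117 in dbR. All diabetic libraries were below control for Vcp, with -0.33 ± 0.06 in dbdb (adjusted p = 0.00328) and -0.37 ± 0.06 in dbR (adjusted p = 0.00171). Its cofactor Nploc4 fell (-0.21 in dbdb and -0.37 in dbR, adjusted p = 0.0195 and 0.00125). The conjugating enzymes Ube2l3 (-0.34, adjusted p = 0.0118) and Ube2n (-0.22, adjusted p = 0.0154) fell in dbdb. Of these calls in dbdb, that of Nploc4 was lost without control 1, control 3, dbdb 1 or dbdb 3, and that of Ube2n without dbdb 1. Under either same-sum scaling the calls of Nploc4, Ube2l3 and Ube2n in dbdb were lost, and that of Ube2l3 also with the highest transcript of each gene. When libraries were scaled to the same sum of all genes, the calls of Vcp in dbdb and of Nploc4 in dbR were lost as well. That of Vcp in dbR held under all 22 alternatives.

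Of 11 targets of Nfe2l2 tested, 3 rose and 3 fell in dbdb vs. control, 1 rose and 0 fell in dbR vs. dbdb, and 4 rose and 4 fell in dbR vs. control. Among genes with a mean of at least 10 FPKM, 12.6% rose and 20.2% fell in dbdb and 10.9% and 18.9% in dbR against control, and a list of this size is described by its genes. The subunits of glutamate-cysteine ligase, the first enzyme of glutathione synthesis, fell: Gclm was at 168, 156 and 177 FPKM in control, 74.4, 74.5 and 74.7 in dbdb and 72.8, 66.4 and 73.9 in dbR (-1.16 ± 0.06 in dbdb, adjusted p = 7.55e-06). Gclc was at 74.7, 61.5 and 89.0 FPKM in control, 43.5, 39.4 and 42.2 in dbdb and 44.7, 38.5 and 42.0 in dbR (-0.83 ± 0.12 in dbdb, adjusted p = 8.20e-04). The glutathione transferase Gsta1 rose from 0.442, 0.458 and 0.533 FPKM in control to 9.92, 3.997 and 3.12 in dbdb and 9.38, 6.55 and 7.71 in dbR (3.14 ± 0.34 in dbdb, adjusted p = 1.98e-04). Gsta2, its close relative with which it may share reads, was at 22.2, 20.5 and 27.3 FPKM in control, 239, 87.5 and 51.5 in dbdb and 248, 253 and 170.2 in dbR (2.14 ± 0.44 in dbdb, adjusted p = 0.00601). Nqo1, a quinone reductase, was the target that rose in dbR vs. dbdb, from 36.5, 34.0 and 29.9 to 43.8, 44.5 and 44.6 FPKM (0.41 ± 0.07, adjusted p = 0.0433), a call that held under 8 of 22 alternatives and was lost without any single control or dbR library, dbdb 2 or dbdb 3.

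Cytosolic ribosomal protein genes, the parts of another large particle with high RNA levels, were read the same way. Of 83 tested, 2 fell (2.41%) and 1 rose in dbdb vs. control, with a median of -0.02. In dbR vs. dbdb 2 rose and 0 fell (median 0.29). At an unadjusted p under 0.05 by limma, 58 were higher and 0 lower, beside 1371 and 1170 of all 14537 genes. In dbR vs. control 24 rose (28.9%) and 0 fell (median 0.25), beside 12.3% and 11.8% of all genes. Their sum was 35638 FPKM in dbR 1 and 42693 and 42124 in dbR 2 and 3. It ran from 31221 to 34015 in control and from 30152 to 36887 in dbdb. Of 77 mitochondrial ribosomal protein genes, 18 fell (23.4%) and 2 rose in dbdb vs. control (median -0.13), 0 passed in dbR vs. dbdb (limma; 4 higher and 4 lower at an unadjusted p under 0.05), and 16 fell (20.8%) and 2 rose in dbR vs. control (median -0.11). The shares of this set that fell were near the 20.2% and 18.9% of genes with a mean of at least 10 FPKM. Markers of some other cell types differed between the groups. In dbdb, 3 of 3 distal convoluted tubule markers rose, with a summed level of 287 to 314 FPKM against 156 to 176 in control and 320.2 to 359 in dbR, and 5 of 6 collecting duct markers rose (184 to 277 against 114 to 137, and 201 to 217 in dbR). Markers of endothelium fell (4 of 5, 73.3 to 78.1 FPKM in dbdb against 98.6 to 107 in control and 101 to 117 in dbR), as did those of macrophages and lymphocytes (6 of 7, 6.88 to 9.23 against 18.9 to 22.1, and 10.9 to 11.4). Of the 8 proximal tubule markers 2 rose and 1 fell. In dbdb, 2 of 5 podocyte markers rose, 1 of 6 fibroblast and smooth muscle markers fell, and 0 of 4 thick ascending limb markers passed. In dbR vs. control, 3 of the thick ascending limb, 2 of the podocyte and 1 of the fibroblast and smooth muscle markers rose. The endothelial markers were not lower in dbR than in control (0 fell and 1 rose), and 2 of them rose in dbR vs. dbdb. The part of these shifts in the levels of the proteasome genes was not tested.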

How the data were processed

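Total RNA of renal cortex was depleted of ribosomal RNA and sequenced from strand-specific libraries, 1 per mouse. The deposited values are FPKM per transcript, which the authors made with TopHat2 2.0.9 and Cufflinks 2.1.1 on GRCm38.p2, as the submitters' processing notes and the study's methods give them; read counts were not used here. Since FPKM are no counts, FPKM were summed per gene and tested with limma 3.58.1 (R 4.3.3) on log2(FPKM + 0.1) with a variance trend, in 1 model of 9 libraries, for 14537 genes with a mean of at least 0.1 FPKM. Fold changes are on that scale, which understates changes of low genes. P-values were adjusted by Benjamini-Hochberg over all genes tested and called under 0.05; they measure the spread between mice. FPKM carry no fragment totals, so no counting interval is given. Tables and figures used python 3.11.15, pandas 2.3.3, numpy 2.4.6 and matplotlib 3.10.9. The fit was checked on simulated data with few genes changed. Hardly any change near the size of the members' dbdb vs. control median was recovered there. Coordinates are GENCODE M21 (GRCm38).

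The members and lists were chosen with earlier results of these data known. Named were the catalytic subunits with their immunoproteasome counterparts, up to 3 called members per sub-complex and comparison by adjusted p, the 3 highest and 3 lowest fold changes per comparison, the members with the highest and lowest mean, the members under the filter, up to 3 called genes per partner list and comparison, and Nfe2l1, Nfe2l2, Pomp, Psme1 and Psme2. A gene that this rule takes from a partner list is not reported here. Tables of lncRNA were not used. The 22 alternatives were 2 other pseudocounts, 2 other filters, 4 scalings, 5 other models or gene values and the omission of each of the 9 libraries.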

Additional observations from a re-analysis of the deposited data

How the results depend on the processing

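Across 22 alternatives, 0 members passed the test in dbR vs. dbdb, and 10 to 14 were lower in dbR vs. control. The count of members lower in dbdb vs. control was 5 when the libraries were scaled to the same sum without mitochondrial genes and 3 with them, a scaling chosen after seeing the data, and either raised the median of all genes. It ran from 12 to 27 when 1 library was left out. Members higher in dbdb vs. control numbered 4 and 2 under these scalings, 2 when scaled to the 75th percentile and 0 with no filter, with the 6 libraries of the comparison only, without the trend, with the highest transcript of each gene, or with the replicate block, and 0 to 1 with 1 library left out. In dbR vs. control 0 were higher with the highest transcript, and 0 to 1 with 1 library left out. The median of the members in dbdb vs. control was -0.18 with quantile normalization, -0.12 and -0.11 under the same-sum scalings without and with mitochondrial genes. In dbR vs. control these values were -0.12, -0.091 and -0.091, and -0.22 to -0.11 with 1 library left out. In dbR vs. dbdb they were -0.050 and -0.051 for the same-sum scalings and -0.00070 to 0.074 with 1 library left out (highest without dbR 1).

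Among the named genes, signs turned in comparisons where the member had not passed the test, and for the called member Psmd11 in dbdb vs. control (0.045 with the highest transcript of each gene). With quantile normalization and the same-sum scalings, dbdb vs. control became 0.060, 0.090 and 0.091 for Psma6 and 0.044, 0.090 and 0.091 for Psmb6, and library weights gave -0.086 for Psme2b. In dbR vs. dbdb, scaling to the 75th percentile gave 0.010 for Psmd14 and 0.011 for Psmd2, library weights gave 0.0099 for Psmd14, and the same-sum scalings gave -0.050 and -0.051 for Psmc2 and -0.0069 and -0.0076 for Psmc3ip. In dbR vs. control they gave 0.0047 and 0.0049 for Psma5. With 1 library left out, dbdb vs. control ran from -0.17 to 0.032 for Psmb6 and from -0.29 to 0.29 for Psme2b. In dbR vs. dbdb it ran from -0.10 to 0.012 for Psmb5, -0.041 to 0.074 for Psmc2, -0.054 to 0.041 for Psmd14, -0.034 to 0.012 for Psmd2 and -0.47 to 0.099 for Psme2b. In dbR vs. control it ran from -0.060 to 0.14 for Psmb6, -0.49 to 0.043 for Psme2b and -0.012 to 0.10 for Psmd3. The cause was not tested.

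The replicate numbers do not pair the mice: libraries with the same number correlated at -0.17 to 0.062 in their deviations from the group means. With the replicate block, 20 members were lower in dbdb vs. control, 13 in dbR vs. control and 0 in dbR vs. dbdb. With 3 mice a group and FPKM without fragment counts, differences near the medians of the sub-complexes are at the limit of detection. Summed FPKM do not tell isoform switches from level changes, and 19 members have several transcripts.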
